A study of Mus musculus with 12 samples.

Results

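Hearts that had met busulfan in any of the study's 3 regimens were compared here with untreated hearts. The exposed side held 9 libraries, made of the busulfan group and both FMT groups, and the untreated side held the 3 control libraries, so that all 12 libraries of the series entered. The comparison asks what all busulfan regimens have in common in the heart. RNA came from whole hearts of outbred ICR mice that were 10 weeks old. One exposed group had busulfan alone (20 mg/kg), another added control-FMT and the last added AOS-FMT, with AOS given as 10 mg/kg, and each had 3 libraries. AOS and FMT are abbreviations of the labels. The treatment labels of the FMT groups do not spell out the drug. They give it as B, which was read here as busulfan because the series' design text names that drug, and they state no dose of it. No group had FMT without the drug, so in those 6 libraries the drug and FMT cannot be told apart. Replicates are numbered without a statement that each is its own animal, so p-values measure only the spread between these samples, which may be technical.

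Busulfan is an alkylating drug that crosslinks DNA and is used to empty the bone marrow before a transplant. DNA damage stabilises the transcription factor p53, which then switches on genes that halt the cell cycle, repair DNA or start cell death. Cdkn1a, which encodes the kinase inhibitor p21, is its best known target, and Mdm2, another target, encodes the ubiquitin ligase that returns p53 to a low level. Cardiomyocytes of the adult heart divide very rarely, whereas endothelial cells, pericytes, fibroblasts and resident macrophages can divide.

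Library totals ran from 11333650 to 14335688 estimated counts. Levels are CPM, counts scaled to the library total with TMM factors, and differences are log2 fold changes with their standard error (SE), taken as the mean of the 3 exposed group means minus control. No library was a copy of a replicate, since the smallest chi-square per degree of freedom within a group was 8.88. The 42 tested cardiomyocyte and sarcomere genes summed to 160750 to 217580 CPM in control, against 149110 to 219030 CPM in exposed libraries. Markers of atrial muscle and of liver varied widely. An atrial score, the average log2 CPM of the atrial genes Bmp10, Myl4, Myl7 and Sln, came to 8.75 ± 2.32 (SD, n = 3) in control and 5.66 ± 3.28 (SD, n = 9) in exposed libraries (two-sided exact permutation test, p = 0.205). The liver score, the same mean over 8 genes of secreted liver proteins such as Alb, was 0.87 ± 0.38 (SD, n = 3) against 2.72 ± 1.34 (SD, n = 9), and each exposed library lay above each control library (two-sided exact permutation test, p = 0.0364, 0.0727 after Benjamini-Hochberg adjustment over both scores, where 0.00455 is the smallest p the design allows). Of the 24 liver markers, 13 were higher at an unadjusted p under 0.05 (7 without control 1), beside 5.69% of all genes tested. Of this list edgeR and limma-voom called 0, and DESeq2 called 7 higher. The median log2 fold change of the list was 4.77 for AOS-FMT, 1.90 for control-FMT and 1.43 for busulfan, and its summed level was 70.5 to 172.9 CPM in control, with 78.9 to 1138.8 CPM in exposed libraries.

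Of 13489 genes tested, 18 rose in the exposed hearts, a background share of 0.133%, and 3 fell, a share of 0.0222%, which makes 21 genes or 0.156% in all (edgeR quasi-likelihood test, Benjamini-Hochberg adjusted p under 0.05). The genes that rose hold 3 p53 targets, namely Cdkn1a, Eda2r and Zmat3, the cell cycle gene Ccnd1, the pericyte gene Cspg4, the matrix gene Papln, the endothelial ligand gene Apln and the actin-bundling gene Fscn1. The genes that fell were Ifi27, Hpgd and Prorsd1. Changes were modest, with rises of 0.55 to 1.30 on the log2 scale. At an unadjusted p under 0.05, 767 genes were higher (5.69%) and 609 lower (4.51%). A fold change above 0 was found in 46.2% of all genes and one below 0 in 53.8%. Counts of list members given further on are to be read beside these shares. In each of the 21 called genes the 9 exposed and the 3 control libraries did not overlap, which held for 1.43% of all tested genes upward and 0.519% downward, and nothing is read from it because the calls come from the same contrast.

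**Figure D1:**
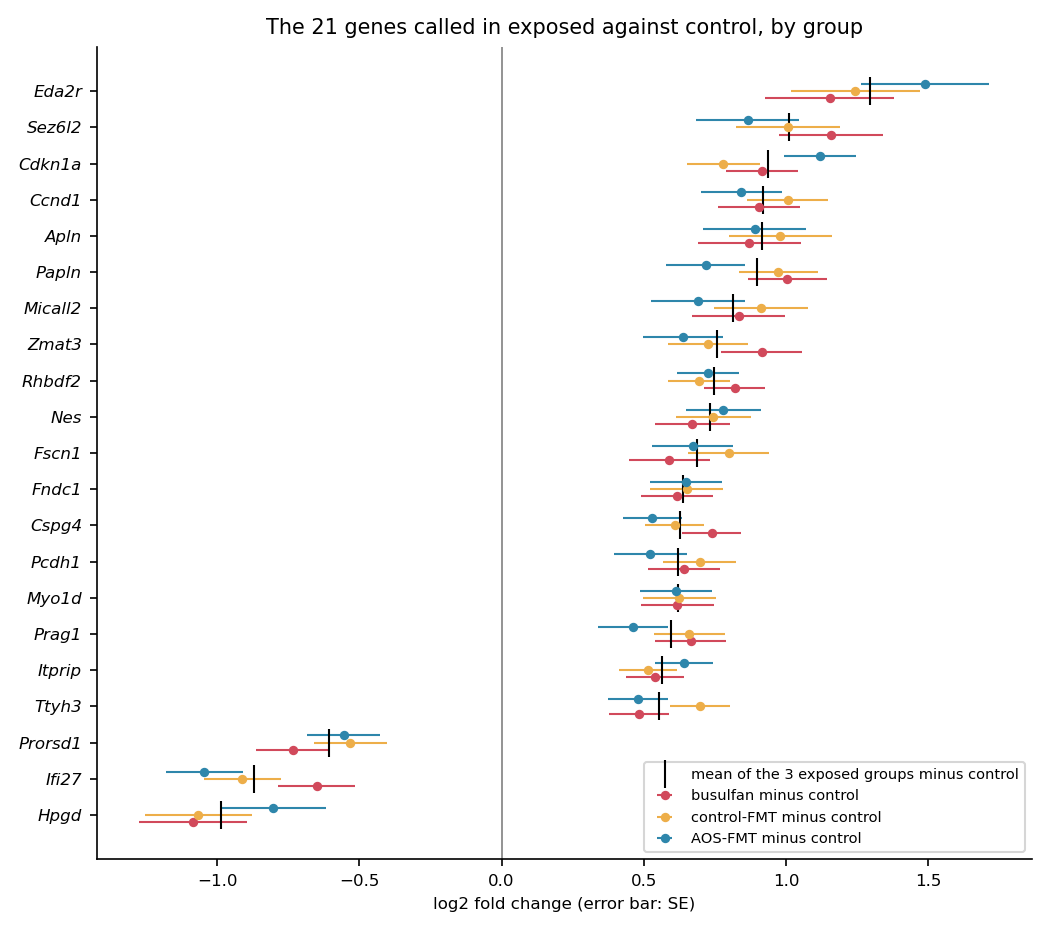
Log2 fold change against control (x axis) of the 21 called genes (y axis) in busulfan, control-FMT and AOS-FMT, as coloured points with their SE, and the mean of the 3 groups as a black tick. All points of the 18 genes that rose lie above 0 and all points of Ifi27, Hpgd and Prorsd1 below 0. The 3 groups share the same control libraries.

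The number of calls depended on single libraries. It was 147 without control 2, 36 without busulfan 3, 36 without AOS-FMT 2, 11 without control-FMT 1, 11 without control-FMT 2, 7 without control-FMT 3, 6 without busulfan 1, 6 without busulfan 2, and 1, namely Ifi27, without control 3. With the liver score as a covariate edgeR called 0 genes, with 715 at an unadjusted p under 0.05, and the lowest adjusted p was 0.101. In that fit all 21 genes kept their direction. Since the score did not overlap between exposed and control, liver signal and exposure cannot be told apart in such a fit. DESeq2, run without the covariate, called 137 genes and limma-voom 12.

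The p53 target genes come first because they are the group closest to DNA damage. Shown are the 250 bases before the start of the upstream Cdkn1a transcript. The same stretch of the other Cdkn1a start, of Mdm2 and of Eda2r follows. These are a target that rose, a well known target that was not called and the called gene with the largest rise. Capitals mark matches to the p53 half-site consensus, a motif of 10 bases searched on both strands, and positions count the bases from the first base of a match to the start of the transcript. Sequences are from RefSeq on GRCm38.p6, read along the strand of the gene, 5′ to 3′.
Cdkn1a, upstream start, chr17:29090729-29090978, plus strand: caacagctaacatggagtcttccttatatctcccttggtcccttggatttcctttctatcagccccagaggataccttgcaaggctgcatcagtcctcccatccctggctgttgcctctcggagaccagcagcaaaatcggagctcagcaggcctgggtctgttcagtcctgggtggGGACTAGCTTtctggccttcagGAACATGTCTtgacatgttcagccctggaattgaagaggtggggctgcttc
Cdkn1a, downstream start, chr17:29093519-29093768, plus strand: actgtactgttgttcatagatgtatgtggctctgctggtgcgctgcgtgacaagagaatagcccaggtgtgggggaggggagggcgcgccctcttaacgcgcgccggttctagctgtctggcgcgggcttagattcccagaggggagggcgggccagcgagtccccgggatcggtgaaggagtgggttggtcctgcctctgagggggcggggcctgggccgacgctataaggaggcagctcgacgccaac
Mdm2, chr10:117710759-117711008, minus strand: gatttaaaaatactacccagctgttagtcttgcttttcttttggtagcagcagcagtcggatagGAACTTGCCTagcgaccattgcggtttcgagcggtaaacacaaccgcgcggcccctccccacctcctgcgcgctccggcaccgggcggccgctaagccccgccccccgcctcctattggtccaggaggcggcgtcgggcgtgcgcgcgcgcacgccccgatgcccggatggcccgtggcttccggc
Eda2r, chrX:97377210-97377459, minus strand: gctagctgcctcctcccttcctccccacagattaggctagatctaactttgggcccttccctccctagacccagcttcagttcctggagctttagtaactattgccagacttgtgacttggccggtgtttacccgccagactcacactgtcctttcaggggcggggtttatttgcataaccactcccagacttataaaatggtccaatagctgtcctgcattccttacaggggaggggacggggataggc
The upstream Cdkn1a window held 2 matches, GGACTAGCTT at 73 bases and GAACATGTCT at 51 bases before the start. The Mdm2 window held GAACTTGCCT at 186 bases before the start, and these letters had no match in the second Cdkn1a window or in the Eda2r window. A match was present in 8.36% of all 32851 RefSeq promoter windows of 300 bases, which run on for 50 bases past the start, and in 26.9% of the 52 windows of the p53 targets that had one. A pair of matches at most 13 bases apart stood in 24 windows of all (0.0731%), that of Cdkn1a among them. Of the 21 called genes 13 had a window, and Cdkn1a was the only one of them with a match. The windows of Ccng1 and Ckap2, not printed here, held a match at 185 and 203 bases before the start. Bases outside the windows were not searched. A match is a resemblance of letters and no evidence of binding.

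Cdkn1a (chr17:29090979-29100722), the gene of p21, stood at 41.4, 42.7 and 31.3 CPM in control. Busulfan libraries had 65.0, 80.2 and 72.6 CPM, control-FMT libraries 63.3, 65.7 and 69.2 CPM, and AOS-FMT libraries 75.4, 88.7 and 86.8 CPM. Every exposed library thus lay above the highest control. Its log2 fold change was 0.94 ± 0.11 (SE), with an adjusted p of 0.0075, and it was called in 25 of 27 alternative fits.

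Eda2r (chrX:97333837-97377234), a receptor of the tumour necrosis factor receptor family, was a low-level gene in control, at 2.31, 3.42 and 3.25 CPM. Its exposed libraries lay between 5.92 and 9.23 CPM with a median of 7.71, a log2 fold change of 1.30 ± 0.20 (adjusted p = 0.0246). This was the largest fold change among the 21 genes. Zmat3 (chr3:32334792-32365665), an RNA-binding zinc finger protein that acts downstream of p53, stood at 6.93, 8.51 and 8.73 CPM in control, against 11.4 to 16.5 CPM in exposed libraries (median 13.5), a log2 fold change of 0.76 ± 0.12 (adjusted p = 0.0278). Busulfan had the highest group mean of Zmat3 (15.2 CPM) and AOS-FMT that of Eda2r (8.45 CPM).

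Mdm2 and Ccng1, both well known targets, did not pass the test. Mdm2 stood at 59.9, 66.1 and 58.3 CPM in control, with 57.8 to 69.0 CPM in exposed libraries (median 67.2), with a log2 fold change of 0.08 ± 0.08 (adjusted p = 0.771). Ccng1, the gene of cyclin G1, stood at 1432, 1336 and 1292 CPM in control, against 908 to 1328 CPM in exposed libraries, with a log2 fold change of -0.14 ± 0.11 (adjusted p = 0.709). For both genes the groups overlapped. On the length-scaled TPM scale the control level of Ccng1 was 482, that of Cdkn1a 27.3, that of Mdm2 24.9, that of Zmat3 1.23 and that of Eda2r 0.76.

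Other p53 targets had higher values without passing the adjustment over all genes. Gdf15, a secreted stress cytokine, stood at 4.62, 2.66 and 2.30 CPM in control, with 4.53 to 8.89 CPM in exposed libraries, with a log2 fold change of 1.08 ± 0.23 (adjusted p = 0.122). Phlda3, a repressor of AKT, had 0.99 ± 0.27 (adjusted p = 0.254), Trp53inp1 0.85 ± 0.19 (adjusted p = 0.151) and Sesn2, a stress-induced sestrin, 0.82 ± 0.21 (adjusted p = 0.211). The death genes Bbc3, Tnfrsf10b and Bax had 0.53 ± 0.16, 0.57 ± 0.19 and 0.36 ± 0.15. Exposed and control libraries did not overlap in Trp53inp1, Sesn2, Bbc3 or Tnfrsf10b, and they did in Gdf15, Phlda3 and Bax. Over the 47 p53 targets tested of 48 listed, 3 rose and none fell, 19 were higher and 1 lower at an unadjusted p under 0.05, and 36 had a fold change above 0, against 46.2% of all genes. The median log2 fold change of the list was 0.23, beside -0.01 over all genes. It was 0.13 without control 1 and 0.15 without control 2. DESeq2 called 7 members higher and limma-voom 1.

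**Figure D2:**
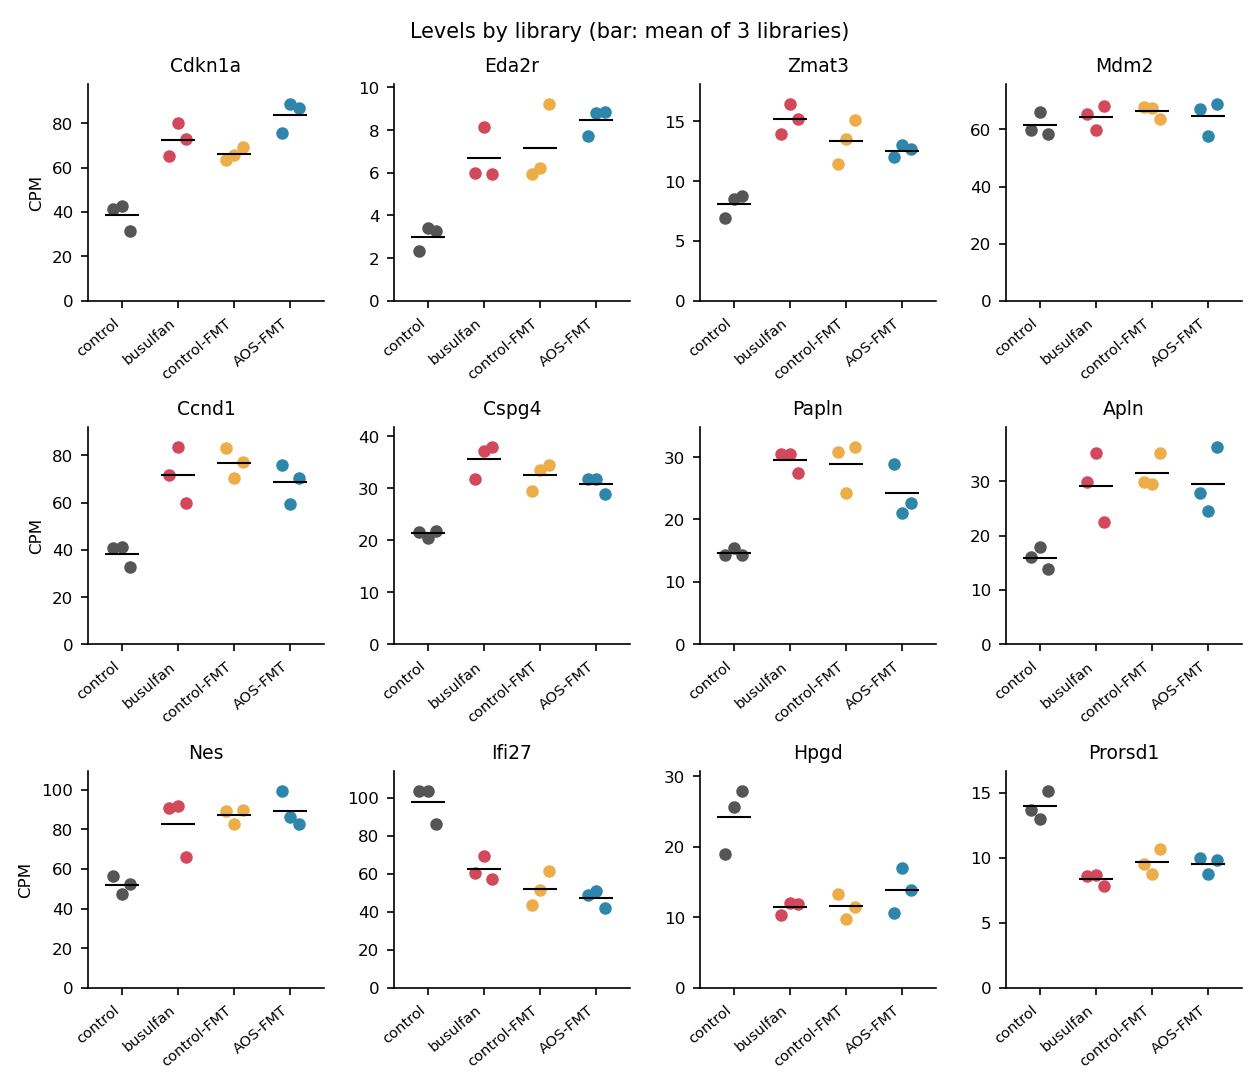
CPM (y axis, from 0) of 12 genes in each library of control, busulfan, control-FMT and AOS-FMT (x axis), with bars at the group means of 3 libraries. Control points lie below all exposed points for Cdkn1a, Eda2r, Zmat3, Ccnd1, Cspg4, Papln, Apln and Nes, above them for Ifi27, Hpgd and Prorsd1, and among them for Mdm2.

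Genes of the dividing cell cycle stood beside the inhibitor p21. Ccnd1 (chr7:144929931-144939831), cyclin D1, which drives cells out of the resting state, was at 40.8, 41.3 and 32.8 CPM in control and at 59.5 to 83.5 CPM in exposed libraries (median 71.8), a log2 fold change of 0.92 ± 0.12 (adjusted p = 0.0113). It was the only one of 15 tested D cyclins and G1 kinase inhibitors that was called, with p21 not counted in that list. Of 36 genes of S and M phase, edgeR called 0, DESeq2 1 and limma-voom 0. At an unadjusted p under 0.05, 17 were higher, beside 5.69% of all genes. A fold change above 0 was found in 35, beside 46.2% of all genes, and the median was 0.62. Mki67, the common marker of cycling cells, stood at 10.4, 10.3 and 8.25 CPM in control, against 10.8 to 20.1 CPM in exposed libraries (0.76 ± 0.18, adjusted p = 0.163). Plk1, the mitotic kinase, had 1.24 ± 0.33 (adjusted p = 0.229) and Prc1, a protein of the mitotic spindle, 0.81 ± 0.22 (adjusted p = 0.239). The fold changes of the helicase genes Mcm2, Mcm3, Mcm4, Mcm5, Mcm6 and Mcm7 ran from 0.00 to 0.46, and that of Pcna was -0.14. The summed level of the 36 genes was 160 to 166 CPM in control and ranged from 156 CPM in the lowest to 263 CPM in the highest exposed library, so the list overlapped between the groups. Without control 3 only 7 of its members were higher at an unadjusted p under 0.05. Of 34 genes of crosslink and homologous repair, edgeR, DESeq2 and limma-voom called 0, with 1 at an unadjusted p under 0.05 and a median of 0.01. The 16 BCL2 family genes had 3 members higher at that level (1 without control 2), 0 called by any of the 3 tools, and a median of 0.11.

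Among the markers of the vessel wall few genes passed the test, with 1 of 20 pericyte and smooth muscle markers and 0 of 30 endothelial markers called. In whole-heart RNA, fewer cells of a type and less RNA per cell cannot be told apart, nor can more cells and more RNA per cell. Cspg4 (chr9:56865104-56899870), the NG2 proteoglycan on the surface of pericytes, stood at 21.7, 20.5 and 21.8 CPM in control, a narrow range, and at 28.8 to 37.9 CPM in exposed libraries (median 31.9), a log2 fold change of 0.63 ± 0.09 (adjusted p = 0.0157). It was the called pericyte and smooth muscle marker. Of that list 5 were higher and 0 lower at an unadjusted p under 0.05, beside 5.69% and 4.51% of all genes. Above 0 were 19, beside 46.2% of all genes, and the median was 0.23. Mylk, the myosin light chain kinase of smooth muscle, had 0.49 ± 0.10 (adjusted p = 0.0778) and Notch3, a receptor of mural cells, 0.42 ± 0.10 (adjusted p = 0.175), both without overlap. Pdgfrb, the defining receptor of pericytes, stood at 112, 115 and 130 CPM in control, with 118 to 143 CPM in exposed libraries (0.11 ± 0.07, adjusted p = 0.655). Rgs5, another pericyte marker, had 0.26 ± 0.13.

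Papln (chr12:83762994-83795140), papilin, a glycoprotein of the extracellular matrix, stood at 14.3, 15.4 and 14.4 CPM in control and at 21.1 to 31.6 CPM in exposed libraries (median 28.8). Its log2 fold change was 0.90 ± 0.12 (adjusted p = 0.0113). Fndc1, a protein with fibronectin type III domains, rose by 0.64 ± 0.11 (adjusted p = 0.0408). Neither level overlapped with control. Among 42 matrix genes outside the fibroblast markers, edgeR called Papln alone and DESeq2 called 5. At an unadjusted p under 0.05, 12 were higher and 0 lower, beside 5.69% and 4.51% of all genes. The median was 0.15, which fell to 0.03 without control 1, to 0.10 without AOS-FMT 2, and reached 0.27 without control 2. By group the median was 0.002 for busulfan, 0.21 for control-FMT and 0.30 for AOS-FMT, so it was near 0 with busulfan alone. Of the 42 genes, 9 differed among the exposed groups at an unadjusted p under 0.05, beside 8.35% of all genes. The basement membrane collagens Col4a1 and Col4a2 lay just outside the threshold, at 0.59 ± 0.12 (adjusted p = 0.0801) and 0.65 ± 0.12 (adjusted p = 0.0538). Col4a2 was at 407, 456 and 339 CPM in control, against 546 to 715 CPM in exposed libraries. Hspg2, perlecan, had 0.55 ± 0.11 (adjusted p = 0.101). The fibrillar collagen gene Col1a1 had 0.32 ± 0.24 (adjusted p = 0.684), and its control libraries, at 160, 315 and 250 CPM, overlapped with the exposed ones.

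Apln (chrX:48025146-48034853), the secreted ligand of the apelin receptor, which sprouting endothelium makes, was at 16.0, 17.9 and 13.9 CPM in control. It lay between 22.5 and 36.3 CPM in exposed libraries (median 29.8), a log2 fold change of 0.91 ± 0.15 (adjusted p = 0.0408). Nes (chr3:87971093-87980451), the intermediate filament nestin of progenitor and young vascular cells, stood at 56.5, 47.2 and 52.6 CPM in control, with 66.1 to 99.4 CPM in exposed libraries (median 89.1), a log2 fold change of 0.73 ± 0.11 (adjusted p = 0.0246). The lowest exposed value of both genes was that of busulfan 3. No endothelial marker among 30 tested was called by edgeR or limma-voom, and DESeq2 called 2 higher and 1 lower. At an unadjusted p under 0.05, 7 were higher and 2 lower (8 lower without control 1), beside 5.69% and 4.51% of all genes. The median of the list was 0.07 (0.01 without control 3). Cdh5, the adhesion molecule that joins endothelial cells, stood at 230, 191 and 203 CPM in control, against 255 to 342 CPM in exposed libraries (0.59 ± 0.11, adjusted p = 0.0575). Outside that list, Bcl6b, an endothelial transcriptional repressor, and Nrp2, a coreceptor of vascular growth factors, had 0.70 ± 0.13 (adjusted p = 0.0538) and 0.60 ± 0.11 (adjusted p = 0.0690). Tek, the receptor of the angiopoietins, and Emcn, endomucin, had values on the other side, at -0.45 ± 0.11 (adjusted p = 0.183) and -0.32 ± 0.12 (adjusted p = 0.411). The endothelial markers thus did not move as one group.

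The other genes that rose belong to none of the lists described here and are given singly. Rhbdf2 (chr11:116598148-116626960), the inactive rhomboid iRhom2 that carries the protease ADAM17 to the cell surface, stood at 14.04, 16.2 and 14.5 CPM in control, with 22.6 to 28.3 CPM in exposed libraries (median 25.3), a log2 fold change of 0.75 ± 0.09 (adjusted p = 0.0075). Sez6l2, a membrane protein, rose from 7.36, 8.43 and 9.36 CPM in control to between 11.2 and 20.2 CPM, a log2 fold change of 1.01 ± 0.16 (adjusted p = 0.0249). Fscn1, fascin, which bundles actin filaments, rose by 0.69 ± 0.12, from 54.5 to 60.2 CPM in control to 67.3 to 111 CPM. Micall2, an actin regulator, rose by 0.81 ± 0.14, and Myo1d, an unconventional myosin, by 0.62 ± 0.11. The adhesion gene Pcdh1 rose by 0.62 ± 0.11, the pseudokinase gene Prag1 by 0.60 ± 0.10, the inositol trisphosphate receptor partner Itprip by 0.57 ± 0.09 and the anion channel family gene Ttyh3 by 0.55 ± 0.09. Micall2, Myo1d, Pcdh1, Prag1 and Fscn1 had adjusted p between 0.0449 and 0.0471 and were called in 7 to 10 of 27 alternative fits. Apln and Prorsd1 were called in 11 of them, Fndc1 in 12, Sez6l2 in 14 and the remaining called genes in 16 to 26. Pfkp, the platelet-type phosphofructokinase of glycolysis, lay outside the threshold at 0.56 ± 0.11 (adjusted p = 0.0801).

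Ifi27 (chr12:103434189-103440245), an interferon-induced gene, fell by 0.87 on the log2 scale (SE 0.11, adjusted p = 0.0075). It stood at 104, 104 and 86.3 CPM in control, at 60.7, 69.3 and 57.2 CPM in busulfan, at 43.7, 51.3 and 61.3 CPM in control-FMT and at 48.9, 51.2 and 42.3 CPM in AOS-FMT. Even the highest exposed library stayed below the lowest control. It was called in 26 of 27 alternative fits. Its relative Ifi27l2a had -0.76 ± 0.25 (adjusted p = 0.359), and reads that the related genes share could have been split between them. Among 28 interferon-stimulated genes, a list that does not hold Ifi27, edgeR called 0, limma-voom 0 and DESeq2 1 lower, while 4 were lower and 0 higher at an unadjusted p under 0.05. Ifit3, which binds viral RNA complexes, stood at 36.6, 24.0 and 21.6 CPM in control, against 7.86 to 20.4 CPM in exposed libraries (-0.99 ± 0.26, adjusted p = 0.241), without overlap. Isg15, the ubiquitin-like modifier, had -0.62 ± 0.25. The median of the list was -0.11, moved to -0.22 by leaving out control 3 and to -0.05 by leaving out control 1.

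Hpgd (chr8:56294552-56321046), the dehydrogenase that inactivates prostaglandins, stood at 18.9, 25.7 and 27.9 CPM in control and at 9.82 to 17.0 CPM in exposed libraries (median 11.9). It fell by 0.99 on the log2 scale (SE 0.15, adjusted p = 0.0235), the largest fall among the called genes. The highest exposed value was that of AOS-FMT 2, and it lay below the lowest control. Prorsd1, a small relative of the editing domain of prolyl-tRNA synthetase, fell by 0.61 (SE 0.10, adjusted p = 0.0408), from 13.7, 12.99 and 15.1 CPM to between 7.87 and 10.7 CPM.

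Some markers of resident macrophages and of platelets had low values in exposed hearts, though edgeR called none of them. Busulfan acts on the blood-forming marrow, from which platelets come, whereas many heart macrophages with Timd4 and Lyve1 renew themselves within the tissue. Timd4, a receptor for dying cells on those macrophages, stood at 4.79, 8.28 and 8.17 CPM in control, with 1.31 to 3.87 CPM in exposed libraries, a log2 fold change of -1.28 ± 0.23 (adjusted p = 0.0540). Cd163, the scavenger receptor for haemoglobin, stood at 17.8, 20.1 and 17.1 CPM in control, 4.18, 3.05 and 6.68 CPM in busulfan, 5.80, 0.98 and 5.78 CPM in control-FMT and 8.47, 9.10 and 7.75 CPM in AOS-FMT (-1.74 ± 0.33, adjusted p = 0.0935). Neither gene overlapped with control. A pass in a fit that leaves out 1 library is not read here as a call. Cd163 had such a pass without control-FMT 2, its lowest library (-1.59, adjusted p = 0.00954), and Timd4 without control 1 (-1.50, adjusted p = 0.0370). Lyve1, the other marker of self-renewing heart macrophages named above, overlapped. It stood at 17.5, 38.8 and 21.9 CPM in control, with 8.92 to 30.1 CPM in exposed libraries (-0.71 ± 0.25, adjusted p = 0.396). Vsig4, a complement receptor of such cells, did not separate the groups, since control 1 was at 1.54 CPM beside 23.6 and 20.8 CPM, and AOS-FMT 2 reached 18.01 CPM.

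Adgre1, the F4/80 antigen of macrophages in general, stood at 17.2, 18.8 and 25.6 CPM in control, against 15.7 to 30.1 CPM in exposed libraries (-0.04 ± 0.16, adjusted p = 0.959). Cx3cr1, the fractalkine receptor, had 0.43 ± 0.12 (adjusted p = 0.257), with control at 12.8, 12.9 and 13.2 CPM and exposed libraries at 14.1 to 21.3 CPM. Of 23 macrophage markers tested, 6 were lower and 1 higher at an unadjusted p under 0.05, and the median was -0.15. By group the median was 0.07 for AOS-FMT, -0.13 for control-FMT and -0.48 for busulfan, and 10 of the 23 differed among the exposed groups at an unadjusted p under 0.05, beside 8.35% of all genes, so the list was not lower in every regimen. The median over the exposed groups was -0.29 without control 2, -0.23 without control-FMT 2 and -0.01 without control 3. DESeq2 called 2 lower and limma-voom 1. The list summed to 1077 to 1510 CPM in control, with 748 to 1517 CPM in exposed libraries, so its total overlapped.

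All 9 platelet and megakaryocyte markers tested, of 16 listed, had a fold change below 0, as did 53.8% of all genes, and 7 were lower at an unadjusted p under 0.05 (3 without control 2), with a median of -1.22. edgeR and limma-voom called 0 of them and DESeq2 5. Pf4, platelet factor 4, which heart macrophages also express, stood at 19.9, 32.7 and 30.3 CPM in control, 11.6, 15.4 and 13.4 CPM in busulfan, 17.6, 13.6 and 14.7 CPM in control-FMT and 21.9, 24.7 and 17.7 CPM in AOS-FMT (-0.75 ± 0.15, adjusted p = 0.0902). The genes of platelets and their parent cells were highest in control 2. Gp9, a subunit of the receptor for von Willebrand factor, stood at 0.86, 7.75 and 2.38 CPM in the 3 control libraries and 0.26 to 1.42 CPM in exposed ones. Itga2b, the platelet integrin, was at 0.94, 14.7 and 4.05 CPM in control, against 0.88 to 2.84 CPM in exposed libraries. Control 1 lay inside the exposed range for both. A low-level gene such as Gp9 can pass the filter on low counts through its higher libraries alone. The shared direction of the platelet list is therefore not read as a result. Without control 2 the median of the list was -0.61. Of 19 erythroid markers listed, 13 were tested, and all 13 had a fold change below 0, with a median of -0.46. At an unadjusted p under 0.05, 2 of them were lower (6 without control 1), and 0 were called by any of the 3 tools. Hba-a1, the alpha globin gene, whose near-identical copy may share its reads, had -0.78 ± 0.36 (adjusted p = 0.496). How much blood each heart held was not measured.

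**Figure D3:**
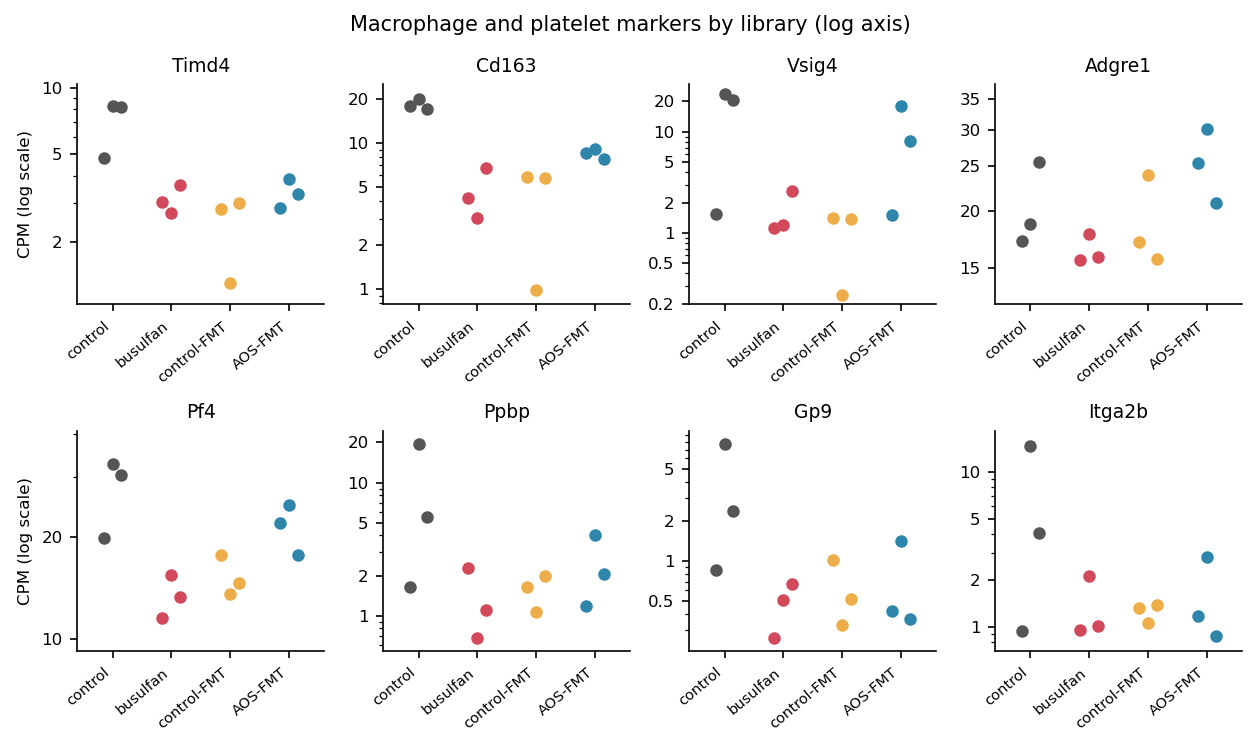
CPM on a log axis (y) of 4 macrophage and 4 platelet markers in each library of the 4 groups (x). Timd4 and Cd163 have all control points above all exposed points, Adgre1 does not separate them, and for Ppbp, Gp9 and Itga2b control 1 lies among the exposed points while control 2 is the highest.

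The lists differed in how tightly the libraries of a group lay together. The level of a list in a library is the mean of its genes' log2(CPM + 0.5) after each gene is centred on its mean over the 12 libraries. For p53 targets the 3 control libraries lay between -0.23 and -0.20 and the exposed ones between -0.06 and 0.23. For S and M phase genes control lay between -0.34 and -0.31 and exposed libraries between -0.26 and 0.42. For pericyte and smooth muscle markers, control ran from -0.36 to -0.10 and the exposed libraries from -0.08 to 0.41. In this level, in which each gene counts alike, these 3 lists separated exposed from control libraries, and so did the liver list, at -1.20 to -0.78 against -0.75 to 3.19. In summed CPM they overlapped. The p53 targets summed to 2651 to 2851 CPM in control, with 2553 to 2874 CPM in exposed libraries, the pericyte and smooth muscle markers to 4320 to 5329 CPM, against 4668 to 5625 CPM, and the S and M phase genes as given above. Such sums mostly follow the most abundant members. Ccng1 alone stood at 1292 to 1432 CPM in control, and Des, a pericyte and smooth muscle marker of the list, reached 3572 CPM. Endothelial, macrophage and interferon-stimulated lists overlapped.

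**Figure D4:**
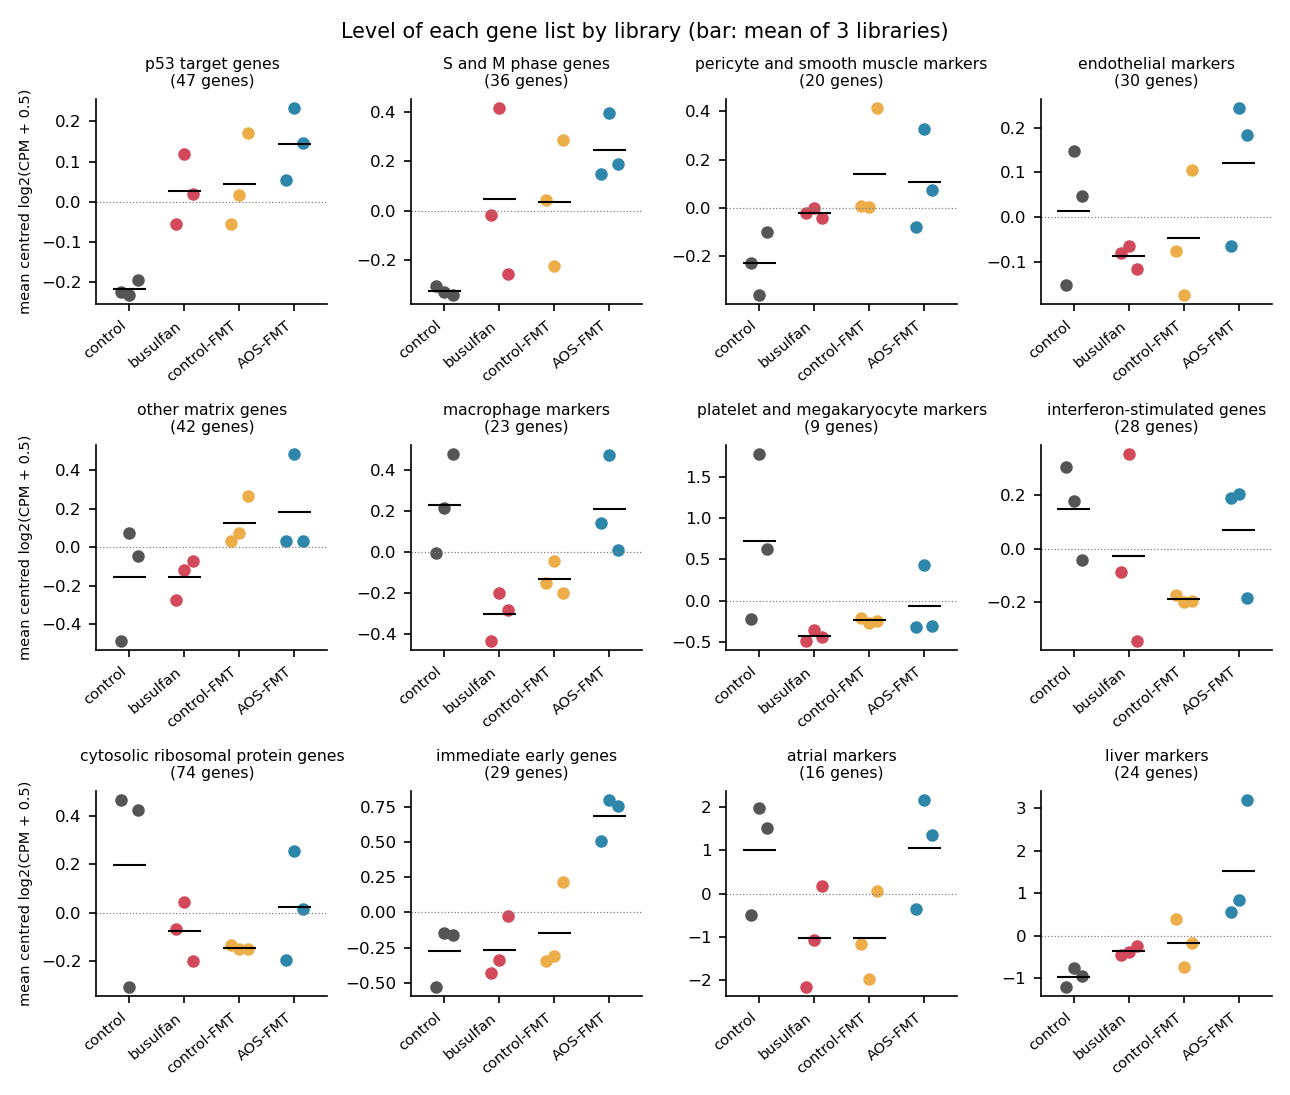
Mean centred log2(CPM + 0.5) (y axis) of 12 gene lists in each library of the 4 groups (x axis), with bars at the group means of 3 libraries. Control points are lowest for p53 targets, S and M phase genes, pericyte and smooth muscle markers and liver markers, whereas the atrial list spreads widely in every group.

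Whether the 3 regimens differed in these genes was tested with 2 degrees of freedom in the same fit. Of the 21 called genes, 0 differed among the exposed groups by edgeR, DESeq2 or limma-voom after adjustment, with 1, 2 and 1 at an unadjusted p under 0.05. The edgeR gene of these was Ifi27 (adjusted p = 0.587), with fold changes of -0.65 ± 0.14 in busulfan, of -0.91 ± 0.14 with control-FMT and of -1.05 ± 0.14 with AOS-FMT. Cdkn1a had 0.92, 0.78 and 1.12 in the same order, with AOS-FMT 0.34 ± 0.13 above control-FMT (adjusted p = 0.759). Papln had 1.00, 0.97 and 0.72. Myo1d and Fndc1 fall under the rule that names the called genes with the most even group fold changes, so nothing is read from their evenness. Myo1d had 0.62, 0.63 and 0.61, with AOS-FMT minus busulfan at 0.00 ± 0.12, and Fndc1 had 0.62, 0.65 and 0.65. These values share their control libraries, and a p that misses the threshold does not show that the regimens act alike.

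Pfkp had a graded pattern, at 0.88 for busulfan, 0.54 for control-FMT and 0.25 for AOS-FMT (unadjusted p among the groups 0.00112, adjusted p = 0.389). Over all genes, 5 differed among the exposed groups (0.0371%), and 1126 did so at an unadjusted p under 0.05 (8.35%). They were Fosl2, Irs2, Atf3, Sik1 and Slc25a25, none of them called in exposed against control. Atf3, a stress-induced transcription factor, stood at 25.4, 26.3 and 24.6 CPM in AOS-FMT, against 4.07 to 12.7 CPM in the other exposed libraries and 6.76, 7.60 and 8.49 CPM in control (adjusted p = 0.0123). Irs2, the insulin receptor substrate, stood at 73.5, 49.6 and 100 CPM in AOS-FMT, against 13.5 to 24.7 CPM in all other libraries of the series (adjusted p = 0.0120). In all 5 genes the AOS-FMT libraries were the 3 highest of the 12. The number of such genes was 1 without busulfan 1, 3 without AOS-FMT 2, 8 without control 1, 8 without control-FMT 3 and 13 without AOS-FMT 1. The liver score was also highest in AOS-FMT, with a mean of 4.06 ± 1.67 (SD, n = 3) against 2.00 ± 0.14 in busulfan and 2.10 ± 0.58 in control-FMT, and its part in these 5 genes was not tested.

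**Figure D5:**
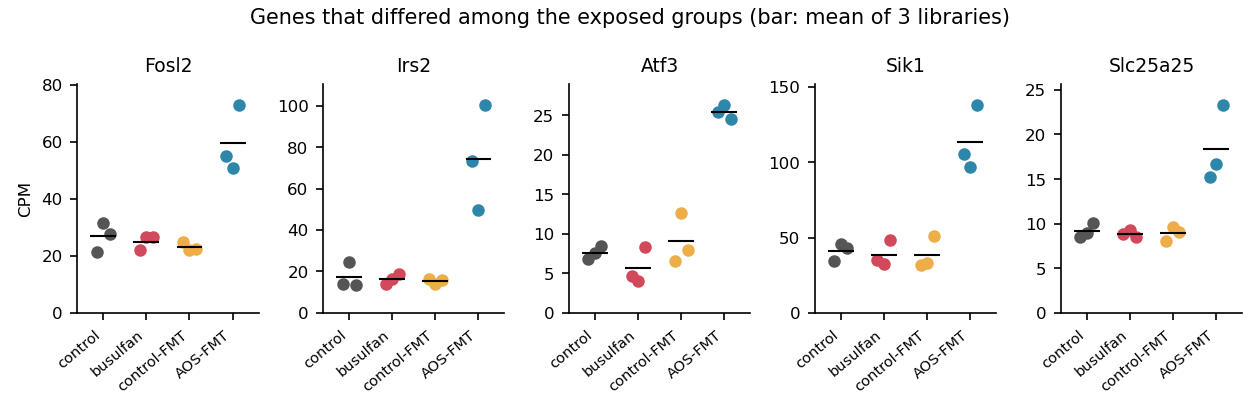
CPM (y axis, from 0) of the 5 genes that differed among the exposed groups, in each library of the 4 groups (x axis), with bars at the group means of 3 libraries. The AOS-FMT points are the 3 highest of each panel, and control, busulfan and control-FMT points lie together.

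Genes of heart load were not among those that changed. Nppa, the atrial natriuretic peptide, stood at 1434, 12084 and 8106 CPM in control and at 251 to 17507 CPM in exposed libraries (-1.67 ± 0.96, adjusted p = 0.597). It is abundant in atria, and the atrial score of a library stood at 6.08 in control 1 and 10.3 in control 2, the libraries with the lowest and the highest control Nppa. Nppb, the brain-type natriuretic peptide, had -0.33 ± 0.22 (adjusted p = 0.628), and both peptide genes changed sign with the atrial score as a covariate. Myh7, the slow myosin heavy chain, had 0.11 ± 0.17 (adjusted p = 0.870) over all exposed hearts, with 0.57 for busulfan, 0.10 for control-FMT and -0.32 for AOS-FMT, and its sign turned without control 2 or control 3. Alb, albumin, a liver gene, stood at 2.40, 1.14 and 0.56 CPM in control and at 6.55 to 302 CPM in exposed libraries (4.24 ± 1.21, adjusted p = 0.324).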

How the data were processed

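Hearts were profiled by RNA-seq in 12 libraries, 3 in each of 4 groups taken from the treatment labels. The authors deposited estimated counts of reads for each gene, as the file headers name them, and 94.7% to 95.3% of a library's values were whole within 1e-09. They also deposited TPM and FPKM values, per the file headers. TPM was used only to set levels of different genes side by side, and FPKM and the authors' group means were not used. The submitters' processing notes list Bowtie 0.12.2 and build mm10. How reads were counted, with which strand setting and annotation, is not given in the sources used here, so overlapping and antisense genes are not told apart. Of 17536 NCBI gene IDs, 17487 matched a RefSeq table of GRCm38.p6, which gave the positions.

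Estimated counts were rounded, filtered with filterByExpr (13489 genes left), scaled by TMM (factors 0.908 to 1.08) and entered 1 robust edgeR 4.0.16 quasi-likelihood fit (R 4.3.3) in which group was the only term. The contrast was the mean of the 3 exposed groups minus control, with Benjamini-Hochberg adjustment over all genes tested and a threshold of 0.05, and adjusted p-values are from this fit unless another tool is named. The median SE of a log2 fold change was 0.133. DESeq2 1.42.0, limma 3.58.1, other scalings and filters, leaving out libraries or groups, a replicate block and score covariates were alternatives. The code was tested on simulated counts.

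The 42 gene lists and the members were chosen with earlier results of these data known. Named genes were the 12 called genes of smallest p in each direction with no overlap and a higher mean of at least 5 CPM, up to 4 called members of each list, the 4 called genes in each direction with the most even group fold changes, and 21 fixed genes. Genes named beyond that rule, chosen after their values were seen, were the remaining 4 called genes and the markers given as examples of a list. Replicate numbers were not taken to pair the samples, as described with the sensitivity results.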

Additional observations from a re-analysis of the deposited data

Results flagged for a closer look

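Among the 9 exposed libraries, a sample was marked when its gap to the nearest other library was large for the whole range. The criterion marks about 1 group in 20 by chance where all samples of a group had the same treatment. Here it was applied across the 3 treatment groups, and for genes to CPM without logarithms, so that rate need not hold. Nppa, the atrial natriuretic peptide, was at 17510 CPM in AOS-FMT 2, beside 251 to 7305 CPM in the other exposed libraries. Ccng1, cyclin G1, was at 907.6 CPM in the same library, beside 1178 to 1328 CPM. Alb was at 302.2 CPM in AOS-FMT 3, beside 6.55 to 28.3 CPM, and the liver score of that library was 5.973, beside 1.52 to 3.36.

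A difference among the 3 exposed groups passed the edgeR test in 5 genes, each highest in AOS-FMT. The adjusted p was 0.01135 for Fosl2, a subunit of AP-1 factors, 0.01201 for Irs2 and 0.01228 for Atf3. It was 0.01228 for Sik1, a salt-inducible kinase, and 0.03487 for Slc25a25, a mitochondrial carrier of adenine nucleotides. Fosl2 stood at 54.9, 50.7 and 72.9 CPM in AOS-FMT against 21.9 to 26.6 CPM in the other exposed libraries, and Sik1 at 106, 96.6 and 138 CPM against 31.7 to 50.8 CPM.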

How the results depend on the processing

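Over 27 alternatives, each of the 21 called genes kept its direction. The number of genes called in exposed against control, 21, was 137 with DESeq2, 12 with limma-voom, 5 without the busulfan group, 5 without the control-FMT group, 29 without the AOS-FMT group (16 of the 21 among them), 14 with the log2 atrial score as a covariate (8 of the 21), 0 with the log2 liver score as a covariate, and 1 to 147 when each library was left out in turn, with 17 of the 21 among the 147 but 8 of the 21 among 24 without control 1. The difference among the exposed groups, called in 5 genes, was called in 107 with DESeq2 and in 1 to 13 when each library was left out. Same-numbered libraries of different groups deviated together with a correlation of -0.152 to 0.468, over 0.1 in 9 of 18 pairs (median 0.115), and libraries of different number with a median of -0.0323, over 0.1 in 8 of 36. Not every same-numbered pair passed 0.1, and the numbers were not taken to pair the samples. These correlations do not exclude a pairing. With a replicate block 29 genes were called in exposed against control, 17 of the 21 among them (Myo1d, Apln, Micall2 and Fscn1 had adjusted p of 0.0505 to 0.0563), and 16 among the exposed groups. The liver score difference of 1.85 was 1.52 with log2(CPM + 1) (two-sided exact permutation p = 0.0773) and 1.45 to 2.06 when each library was left out, with the exact p from 0.00606 to 0.146.

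Signs turned only in genes that were not called. With the log2 atrial score as a covariate Nppa was 0.21, Nppb 0.0616 and Myh7 -0.00620. Myh7 ran from -0.0253 (without control 3; -0.0141 without control 2) to 0.399 when each library was left out, and was -0.117 without the busulfan group. Adgre1 ran from -0.163 to 0.138 (without control 3; 0.000488 without AOS-FMT 3) when each library was left out, and was 0.0949 without the busulfan group, 0.0442 with the linear atrial content and 0.237 with the log2 liver score. Without the AOS-FMT group Fosl2 was -0.155, Irs2 -0.130, Atf3 -0.0869, Sik1 -0.0927 and Slc25a25 -0.0428, and with the log2 liver score Fosl2 was -0.0536. The cause was not tested. Depth limits the low-level genes most, such as Eda2r, Timd4 and the platelet markers.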

Other observations

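Other gene groups had values that belong to no call. Of the clock genes, Nr1d1, the repressor REV-ERB alpha, stood at 38.5, 67.9 and 52.0 CPM in control and at 80.8 to 230 CPM in exposed libraries (1.35 ± 0.27, adjusted p = 0.110), and Arntl, the activator it represses, at 43.7, 47.8 and 43.9 CPM against 21.7 to 42.8 CPM (-0.44 ± 0.11, adjusted p = 0.186). Neither overlapped with control. Of 21 clock genes, 3 were higher and 3 lower at an unadjusted p under 0.05, beside 5.69% and 4.51% of all genes. The labels used here give no time of day at which hearts were taken. Of 19 T and NK cell markers listed, 9 were tested. All 9 had a fold change above 0, beside 46.2% of all genes, with a median of 1.102. At an unadjusted p under 0.05, 3 were higher (6 without control-FMT 3), beside 5.69% of all genes. Of these markers 0 were called by edgeR, DESeq2 or limma-voom. Their summed levels were 5.39 to 8.57 CPM in control, with 7.95 to 30.2 CPM in exposed libraries. At such levels a gene can pass the low-count filter through its higher libraries alone. Nothing is therefore read from their shared direction.

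All 74 cytosolic ribosomal protein genes had a fold change below 0, beside 53.8% of all genes, with a median of -0.30. At an unadjusted p under 0.05, 20 were lower (1 without control 1, 69 without control 2), beside 4.51% of all genes. Of this list 0 were called by any of the 3 tools. The median was -0.51 without control 2, -0.16 without control 1 and -0.19 without control 3, and the summed level overlapped, at 20793 to 35739 CPM in control, against 22525 to 30863 CPM in exposed libraries. Of 70 nuclear oxidative phosphorylation genes, 69 had a fold change below 0, beside 53.8% of all genes, with a median of -0.15. By group the median was 0.03 for busulfan, -0.18 for control-FMT and -0.31 for AOS-FMT, so the list was not lower in every regimen. The count at an unadjusted p under 0.05 was 1, which became 44 without control 2. Of 20 fibroblast markers, 5 were lower at an unadjusted p under 0.05 (1 without control 3, 8 without AOS-FMT 2), and the median was 0.07 for AOS-FMT, -0.15 for control-FMT and -0.59 for busulfan. Those lower over the exposed groups hold Dpep1 (-0.80 ± 0.17, adjusted p = 0.106), Pdgfra (-0.43 ± 0.15, adjusted p = 0.364) and Dcn (-0.45 ± 0.18, adjusted p = 0.425). In all 3 the AOS-FMT mean was the nearest to control of the exposed groups. Among 20 glutathione S-transferases, enzymes that conjugate busulfan, 5 were lower (2 without control 3) and 2 higher at an unadjusted p under 0.05. Of all genes 4.51% were lower and 5.69% higher at that level. Gstp2 had 1.30 ± 0.28 (adjusted p = 0.128) and its close copy Gstp1, with which it may share reads, 0.45 ± 0.19 (adjusted p = 0.451), while Gstt1 had -0.82 ± 0.21 (adjusted p = 0.211).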
